A study of Homo sapiens with 15 samples.

Results

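The genes described here are 47 genes of the cell cycle and of proliferation, found by gene name in a table of 15790 genes measured in 15 RNA-seq libraries of human cell cultures. They were chosen as a list of names, without a threshold on their values. All 47 were in the table and all 47 passed the filter on low values in each fit, with values in single libraries from 7.46 to 1756 normalized counts. A normalized count is a read count scaled so that libraries of different depth can be compared, and it can be compared between libraries for 1 gene but not between genes, since it is not divided by gene length. For description the genes were put into 7 groups by role: replication licensing and initiation (10 genes), nucleotide supply and the replication fork (5), control of the G1/S step and of S phase (5), G2/M control (10), spindle, kinetochore and checkpoint (10), midzone and cytokinesis (4), and proliferation markers and chromatin (3).

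The libraries form 5 groups of 3. RPTEC/TERT1 cells, an immortalized line of human renal proximal tubular epithelium, were grown alone on LN/FN-silk membranes (silk monoculture) or on LN/PC membranes (LN/PC monoculture), or on either membrane together with fHDF/TERT166, immortalized fibroblasts of human foreskin dermis (silk co-culture and LN/PC co-culture). The last group is titled as fHDF/TERT166 monocultures and was treated as fibroblasts alone (fibroblast monoculture), although the protocol calls these samples basolateral. Seeding densities were 140000 epithelial cells and 14000 fibroblasts per cm2, cultures ran for 14 days, and the medium of epithelial cultures and co-cultures carried 10 ng/ml EGF, a growth factor, and 0.5% serum. Fibroblasts had been expanded in 10% serum, and their medium during the experiment is not given in the labels. Both cell types are single immortalized lines, and each sample pooled 3 to 8 membranes. Cells on silk were harvested by scraping and those on LN/PC by cutting out the membrane, so the membrane cannot be told apart from the harvest in any comparison of the membranes. Nothing in the labels states that the 3 libraries of a group came from separate cultures, so p-values reflect only the spread among these libraries, part of which can be technical.

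A cell that enters the cycle first licenses its replication origins by loading the MCM helicase with the help of CDC6 and CDT1, and then makes the enzymes for nucleotides and for the replication fork, mostly under transcription factors of the E2F family. The genes of mitosis follow in G2 under MYBL2, FOXM1 and the MuvB complex, and their products (cyclin B with CDK1, Aurora and Polo kinases, kinesins and checkpoint proteins) build the spindle and divide the cell. In resting cells the DREAM complex holds both sets silent, which makes their RNA a common measure of the share of cells in cycle. A confluent proximal tubular epithelium cycles little, and its cells re-enter the cycle after injury.

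In units of 1e6 normalized counts, library totals were 9.08 to 12.7, and the spacing of low values put the assigned reads at about 8.71 to 14.3 in the same units. Of 16 epithelial markers 15 were measured, and all 15 were above 0 in each of the 12 libraries with epithelial cells, while 8 or 9 were at 0 in each fibroblast monoculture. Against the epithelial monocultures, 13 of these 15 were called lower in fibroblasts and 2 higher: ANPEP, an aminopeptidase that fibroblasts also make, averaged 2023 in silk monocultures, 1488 in LN/PC monocultures and 11041 in fibroblasts, and CUBN, an endocytic receptor of the tubule, averaged 61.9, 41 and 151. The summed level of 15 fibroblast markers was 17.8% to 32.0% of the fibroblast monoculture mean in LN/PC co-cultures, but 0.252% to 0.312% in silk co-cultures, against 0.25% to 0.310% in monocultures on silk and 0.182% to 0.235% on LN/PC. Outside the LN/PC co-cultures and fibroblasts, FBN1, a matrix gene, was the largest part of that sum. It was most of the sum except in silk co-culture 3, where it was 809.6 of 1778. FBN1 averaged 1385 in silk monocultures and 1014 in silk co-cultures. Gene by gene, 3 of the 15 fibroblast markers were called higher in silk co-cultures than in silk monocultures and 0 lower, where 2.91% of all genes were called higher. COL5A1 was at 47.2, 42.7 and 66.5 in silk monocultures and 152.6, 121 and 179.9 in silk co-cultures (limma adjusted p = 0.000795). COL3A1 was at 0 in every epithelial monoculture and at 44.3, 0 and 39.55 in silk co-cultures (limma adjusted p = 0.0459), and PDGFRA averaged 2.27 and 13.7 (limma adjusted p = 0.0317). At 0 were 7, 8 and 7 of the 15 in silk monocultures 1, 2 and 3 and 2, 6 and 2 in silk co-cultures 1, 2 and 3. Silk co-cultures thus held more RNA of these 3 markers than silk monocultures, at levels far below those of LN/PC co-cultures. There COL5A1 averaged 4049 and COL3A1 27660.5. Over the 15 markers the median difference on silk was 1.51 on the log2 scale, and 10 had an unadjusted p under 0.05 by limma. Of these, PDGFRB and FBN1 had negative differences. The largest rises were not called. COL1A2 averaged 8.38 in silk monocultures and 93.2 in silk co-cultures (limma adjusted p = 0.0637), and COL6A3 3.45 and 87.4 (limma adjusted p = 0.0869). In silk co-culture 2 these 2 were at only 4.75 and 2.62. Not all rose: PDGFRB averaged 10.2 in silk monocultures and 1.87 in silk co-cultures (limma adjusted p = 0.0682). DCN averaged 76.3 in both groups, and POSTN and TWIST1 were at 0 in both.

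2 libraries stood apart from their groups in these genes. Silk monoculture 1 was the lowest of its group in 41 of 47 genes, against 32.2% of all genes, and LN/PC monoculture 2 was the lowest of its group in 35 of 47, against 33.6% of all genes. Averaged over the 47 genes on the log2 scale, silk monocultures 1, 2 and 3 stood at 7.45, 8.19 and 8.26, and LN/PC monocultures 1, 2 and 3 at 7.77, 6.98 and 7.502. The 3 silk co-cultures stood at 7.23, 7.04 and 6.79, the LN/PC co-cultures at 7.37, 7.24 and 7.28, and the fibroblast monocultures at 6.91, 6.90 and 6.81. So each silk monoculture was above each silk co-culture, while LN/PC monoculture 2 was below all 3 LN/PC co-cultures and the other two LN/PC monocultures were above them. These 2 libraries were also the deepest of their groups, with about 12 in units of 1e6 reads each against 8.71 to 10.5 in the other libraries of those groups, and the part of depth in the difference was not tested.

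**Figure D1:**
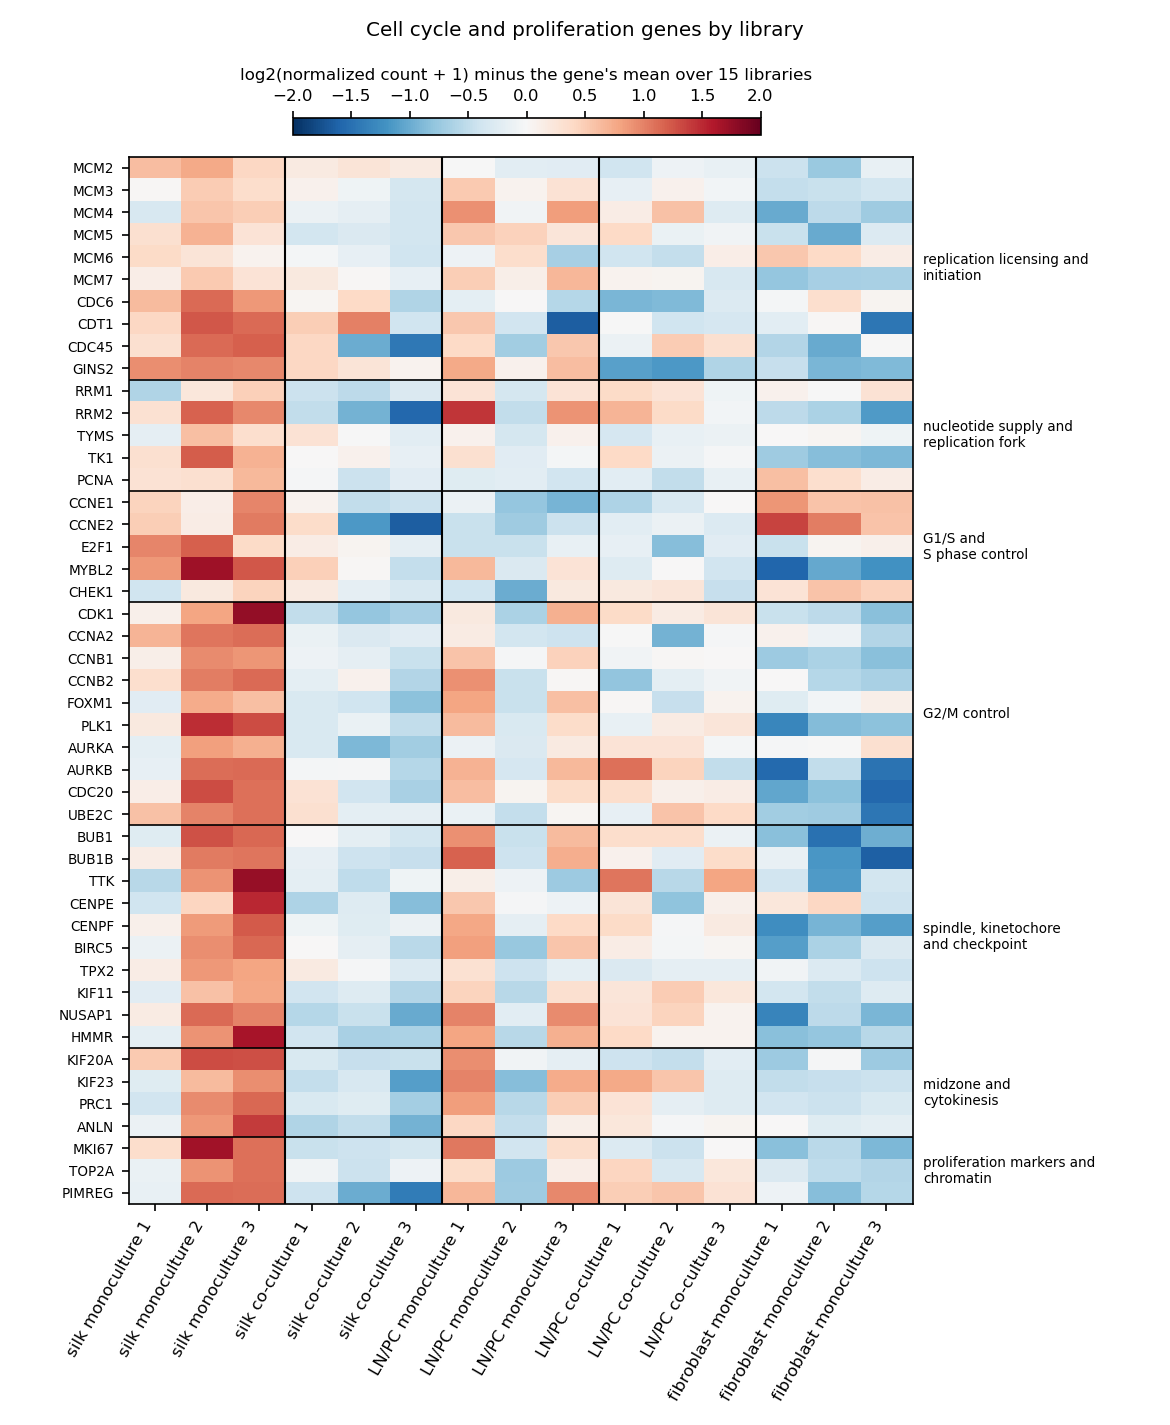
Level of each of the 47 genes (rows, grouped by role) in each of the 15 libraries (columns, grouped by culture), as log2(normalized count + 1) minus the mean of that gene over the 15 libraries. Silk monocultures 2 and 3 are the columns with the highest levels, silk monoculture 1 and LN/PC monoculture 2 are paler or lower than the rest of their groups, and fibroblast monocultures have the lowest mean in 26 genes.

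Over the 5 groups, the silk monoculture mean was the highest for 40 of the 47 genes, against 16.8% of the 14756 genes that reached 10 normalized counts in 3 or more of the 15 libraries. The fibroblast monoculture mean was the lowest for 26 of 47 (36.4% of all those genes) and the silk co-culture mean for 12 of 47 (17.8%). The exceptions at the top were MCM4 and MCM7, helicase subunits with their highest mean in LN/PC monocultures, RRM1, the large subunit of ribonucleotide reductase, highest in LN/PC co-cultures, and MCM6, CCNE1, CCNE2 and CHEK1, highest in fibroblasts. MKI67, the gene of the Ki-67 proliferation marker, was measured at 698, 1756 and 1178 normalized counts in silk monocultures and 400.3, 409 and 427 in silk co-cultures. On LN/PC it was at 1138, 419 and 694 in monocultures and 452, 403 and 550.1 in co-cultures, and it was at 307, 376 and 291 in fibroblast monocultures. Every silk monoculture lay above every silk co-culture for MKI67. LN/PC monoculture 2 lay within the range of the LN/PC co-cultures, and LN/PC monocultures 1 and 3 lay above it. TOP2A, the topoisomerase that untangles replicated DNA, was measured at 459.6, 932 and 1079 in silk monocultures and 478, 372 and 465 in silk co-cultures. On LN/PC it was at 645, 304 and 549 in monocultures and 675, 404 and 588 in co-cultures, and it was at 409.8, 354 and 334 in fibroblasts. For TOP2A, silk monoculture 1 lay within the range of the silk co-cultures, and the other two silk monocultures were above every other library.

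**Figure D2:**
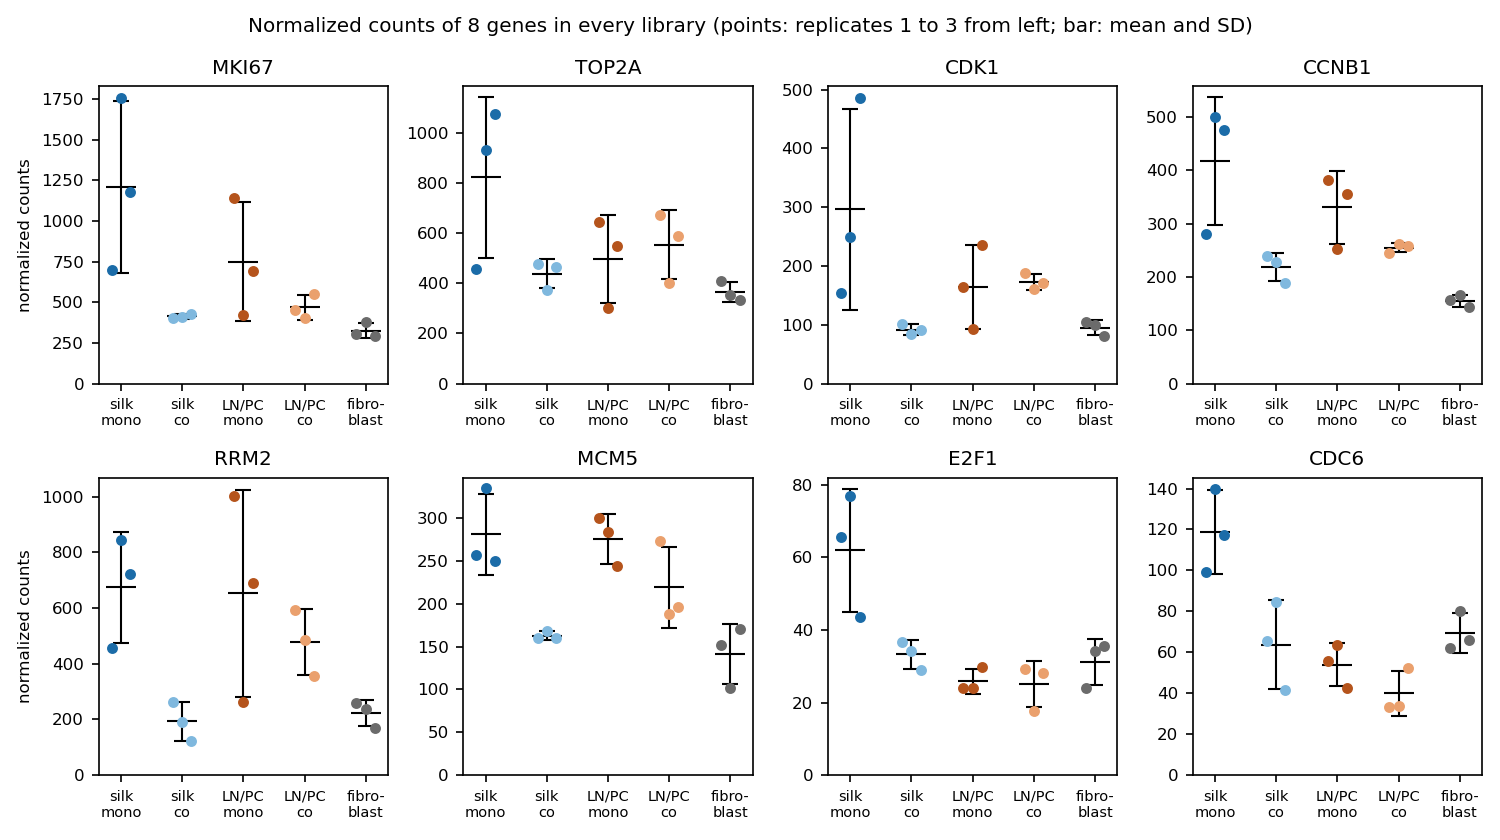
Normalized counts (vertical axes, starting at 0) of 8 genes in every library, with points for replicates 1 to 3 from left to right and bars for the mean and SD of the 3 libraries of a group. For RRM2, MCM5, CDK1, CCNB1 and MKI67 the 3 silk co-culture points lie below the 3 silk monoculture points, and for E2F1 and CDC6 the LN/PC groups lie below the silk monocultures.

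The first comparison asked what the presence of fibroblasts changed on silk. In the limma-trend test, 14 of the 47 genes were called lower in silk co-cultures than in silk monocultures at an adjusted p under 0.05 and 0 higher, where 0.866% of the 14433 genes tested were called lower, 2.91% higher and 3.78% either way. All 47 differences were negative, from -1.82 to -0.18 on the log2 scale, with a median of -0.91 against 0.00 over all genes, and 37 of 47 had an unadjusted p under 0.05. The groups did not overlap, with silk co-cultures lower, for 29 of 47 genes, against 12.4% of all genes. In bulk samples, fewer cells in cycle and less of this RNA per cell cannot be told apart. Of the 15 fibroblast markers, the 3 called higher in silk co-cultures, COL5A1, COL3A1 and PDGFRA, move with this comparison. COL1A2 and COL6A3 had higher means in silk co-cultures without a call, and PDGFRB and FBN1 had lower means. The part of fibroblast RNA in this comparison was not tested.

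Among the genes of licensing and initiation, 1 of 10 was called lower on silk with co-culture, and the median difference was -0.51. MCM5, a subunit of the replicative helicase, was at 258, 336 and 249.9 normalized counts in silk monocultures and 159.9, 169 and 160.1 in silk co-cultures. MCM5 fell by 0.77 ± 0.19 (SE) on the log2 scale (limma adjusted p = 0.0342), and the groups did not overlap. The other helicase subunits, MCM2, MCM3, MCM4, MCM6 and MCM7, had differences of -0.38, -0.41, -0.47, -0.44 and -0.29, and none passed the test. MCM2 was at 341, 377 and 297 in silk monocultures and 254, 268 and 253 in silk co-cultures, a small gap without overlap. CDC6, which loads the helicase on origins, was at 99.2, 139.9 and 117 and 65.6, 84.4 and 41.3, again without overlap, with a difference of -0.93 ± 0.31 (limma adjusted p = 0.12). CDT1, its partner in loading, CDC45, which activates the helicase, and GINS2, a subunit of the active helicase, had differences of -0.56, -1.54 and -0.71 and did not pass the test. CDC45 was the most variable of these in silk co-cultures, at 50.4, 18.4 and 13.3.

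Of the 5 genes of nucleotide supply and the fork, RRM2 and PCNA were called lower. RRM2, the small and cell cycle regulated subunit of ribonucleotide reductase, had the largest difference of the 47 genes: it was at 457, 844 and 721 in silk monocultures and at 263, 192 and 123 in silk co-cultures, without overlap. The RRM2 difference was -1.82 ± 0.39 on the log2 scale (limma adjusted p = 0.012). RRM1, its partner subunit, which is less tied to S phase, had a difference of -0.45 ± 0.24 and was not called. PCNA, the sliding clamp of the fork, was at 506, 515 and 646 and 408, 308 and 354, without overlap, and fell by 0.64 ± 0.17 (limma adjusted p = 0.0435). TK1 and TYMS, which make thymidine nucleotides, had differences of -0.77 and -0.23 and were not called.

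Among the 5 control genes of G1/S and S phase, MYBL2 was the 1 called. MYBL2, a transcription factor that binds the MuvB complex, was at 197, 351 and 257 in silk monocultures and 150.3, 109.9 and 77.5 in silk co-cultures, without overlap, a difference of -1.26 ± 0.30 (limma adjusted p = 0.023). E2F1, the factor that drives S phase genes, was at 65.6, 76.9 and 43.5 and 36.8, 34.2 and 28.9. Its difference of -0.85 ± 0.33 did not pass the test (limma adjusted p = 0.184), although its groups did not overlap. CCNE1 and CCNE2, the E cyclins that start S phase, had differences of -0.80 and -1.37, and CHEK1, the replication checkpoint kinase, -0.18, the smallest of the 47.

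The G2/M control genes held 5 of the 14 calls, all lower. CDK1, the kinase of mitotic entry, was at 154, 249 and 486 in silk monocultures and 102, 83.5 and 90.3 in silk co-cultures. The CDK1 groups did not overlap although the silk monocultures spread widely, and the difference was -1.53 ± 0.36 (limma adjusted p = 0.0219). CCNB1, its cyclin partner, was at 280.0, 499 and 476 and 239.8, 228 and 188, without overlap, and fell by 0.89 ± 0.22 (limma adjusted p = 0.0317). PLK1, the Polo kinase that acts from mitotic entry to exit, was at 134, 330.0 and 291 and 94.99, 107 and 83.6, a difference of -1.30 ± 0.31 (limma adjusted p = 0.0259). CCNA2, the cyclin of S phase and G2, fell by 1.18 and AURKA, the Aurora kinase of the spindle poles, by 1.08. CCNB2, FOXM1, AURKB, CDC20 and UBE2C had differences of -1.06, -0.88, -0.90, -1.09 and -0.91, and none of these 5 passed the test. CDC20, an activator of the anaphase-promoting complex, came nearest (limma adjusted p = 0.0566).

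Of the 10 spindle, kinetochore and checkpoint genes, NUSAP1 alone was called, with a median over the 10 of -0.93. NUSAP1, which bundles spindle microtubules, was at 234, 457 and 416 in silk monocultures and 139, 152 and 103 in silk co-cultures, without overlap, a difference of -1.44 ± 0.31 (limma adjusted p = 0.0116). BUB1, BUB1B and TTK, kinases of the spindle checkpoint, had differences of -0.91, -1.10 and -0.95. HMMR, a spindle protein, had -1.34, and the kinetochore proteins CENPE and CENPF had -1.09 and -0.87. BIRC5, a subunit of the chromosomal passenger complex, TPX2, which activates AURKA, and KIF11, the kinesin that pushes the poles apart, had -0.89, -0.64 and -0.79. In this role silk monoculture 1 was close to the silk co-cultures: on the mean log2 level of the 10 genes it stood 0.78 below the silk monoculture mean, where the co-cultures stood 0.88, 0.98 and 1.15 below it.

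In midzone and cytokinesis 2 of 4 genes were called lower, and in markers and chromatin 2 of 3. KIF20A, a kinesin of the midzone, was at 196, 337 and 337 in silk monocultures and 110.3, 98.6 and 99.95 in silk co-cultures. Its difference of -1.44 ± 0.28 had the smallest adjusted p of the 47 genes (limma adjusted p = 0.00751). ANLN, a scaffold of the contractile ring, was at 389, 776 and 1122 and 278, 299 and 219, a difference of -1.40 ± 0.30 (limma adjusted p = 0.0117). Neither KIF20A nor ANLN overlapped between the groups. KIF23 and PRC1, which form the midzone, had -1.08 and -0.98 and were not called. MKI67, with the values given above, had a difference of -1.45 ± 0.31 (limma adjusted p = 0.0132). PIMREG, a mitotic protein that binds CALM, was at 51.96, 129 and 127 and 43.1, 28.7 and 21.5, a difference of -1.63 ± 0.43 (limma adjusted p = 0.044). TOP2A had a difference of -0.83 ± 0.30 and did not pass the test (limma adjusted p = 0.159).

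The number of calls on silk moved with single libraries. It was 24 of 47 without silk monoculture 1, 1 without silk monoculture 2, 1 without silk monoculture 3, 9 without silk co-culture 1, 4 without silk co-culture 2 and 1 without silk co-culture 3, all of them lower, with a median over the 47 genes from -1.28 to -0.78. It was 26 with only the 6 silk libraries in the fit and 2 with limma without its mean-variance trend. The shares of all genes called in these recomputed fits are not given here, so the counts show only how calls on the 47 genes moved.

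The genes in this list share promoter features that the list of names did not use. RefSeq promoter windows, from 250 bases before to 50 after the annotated start on GRCh38.p14, were found for 37 of the 47 genes, 8 of them with more than 1 window. 3 kinds of short motif were searched on both strands. The first was the NF-Y box (CCAAT), and the second the cell cycle homology region or CHR, which the MuvB complex binds, read as TTTGAA and its variant TTCGAA. The last was the E2F-type site, read as TTTGGCG, as the variant TTTCCCG and also as the variant TTCCCGC, of which the variants can overlap each other. The NF-Y box was in 29 of 37 genes (78.4%), against 43.2% of the 11327 genes of the expression table with a window and 39.7% of all 27305 genes with one. A CHR was in 17 of 37 (45.9%, against 15.6% and 19.5%), and an E2F-type site in 15 of 37 (40.5%, against 19.8% and 12.6%). The motifs split by role: of the 17 genes in the 3 replication and G1/S roles, 12 had an E2F-type site and 2 a CHR, and of the 20 in the 4 mitotic and marker roles, 3 had an E2F-type site and 15 a CHR. In a wider list of 41 other S phase genes with a window, 25 had an E2F-type site and 4 a CHR, and in 60 other mitotic genes 16 and 42 did. A match of letters is not a binding site, and a gene without a match lacks these letters in this window only.

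7 promoters show these motifs, and NUSAP1 and MKI67 carry both a CHR and an E2F-type site. They were picked after their motifs were seen, among the genes with 1 window: CDC6, E2F1 and GINS2 carry E2F-type sites and were among the genes called between the membranes, CDC6 and E2F1 in monocultures and GINS2 in co-cultures, and PLK1, NUSAP1, MKI67 and ANLN carry a CHR and were called lower in silk co-cultures. Each is printed from 150 bases before to 30 bases from the annotated start on, on the strand of the gene, with the motifs in capitals. The GRCh38.p14 positions are chr17:40287729-40287908, plus strand for CDC6, chr20:33686356-33686535, minus strand for E2F1, chr16:85688925-85689104, minus strand for GINS2, chr16:23678739-23678918, plus strand for PLK1, chr15:41332731-41332910, plus strand for NUSAP1, chr10:128126394-128126573, minus strand for MKI67 and chr7:36389712-36389891, plus strand for ANLN.
CDC6: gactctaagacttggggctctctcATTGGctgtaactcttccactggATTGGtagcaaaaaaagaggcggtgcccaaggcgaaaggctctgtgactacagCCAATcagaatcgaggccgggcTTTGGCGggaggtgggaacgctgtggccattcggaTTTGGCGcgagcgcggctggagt
E2F1: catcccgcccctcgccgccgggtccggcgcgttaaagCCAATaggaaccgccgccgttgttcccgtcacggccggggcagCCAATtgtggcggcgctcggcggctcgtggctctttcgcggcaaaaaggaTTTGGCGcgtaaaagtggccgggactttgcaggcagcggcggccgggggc
GINS2: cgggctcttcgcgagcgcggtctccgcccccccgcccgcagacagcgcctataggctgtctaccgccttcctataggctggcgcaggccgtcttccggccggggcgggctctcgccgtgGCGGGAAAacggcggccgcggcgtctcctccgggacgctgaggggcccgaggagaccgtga
PLK1: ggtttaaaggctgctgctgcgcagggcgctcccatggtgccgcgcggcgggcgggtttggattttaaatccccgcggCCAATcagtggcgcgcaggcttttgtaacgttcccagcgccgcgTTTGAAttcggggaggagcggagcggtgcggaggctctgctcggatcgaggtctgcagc
NUSAP1: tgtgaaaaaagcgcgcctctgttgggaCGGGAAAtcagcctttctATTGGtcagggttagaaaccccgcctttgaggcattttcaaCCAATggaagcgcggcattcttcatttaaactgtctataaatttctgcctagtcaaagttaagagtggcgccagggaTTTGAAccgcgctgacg
MKI67: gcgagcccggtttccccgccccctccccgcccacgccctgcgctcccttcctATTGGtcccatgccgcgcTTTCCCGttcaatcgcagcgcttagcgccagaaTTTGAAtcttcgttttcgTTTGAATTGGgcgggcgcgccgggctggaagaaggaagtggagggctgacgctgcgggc
ANLN: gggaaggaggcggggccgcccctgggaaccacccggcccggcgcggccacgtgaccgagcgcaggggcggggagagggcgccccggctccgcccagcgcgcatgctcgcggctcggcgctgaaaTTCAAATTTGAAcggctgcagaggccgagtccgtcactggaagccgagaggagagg

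With the start counted as base 0, CDC6 has E2F-type sites that begin at -28 and 7 and NF-Y boxes at -126, -103 and -50, and E2F1 has an E2F-type site at -20. In GINS2 a pair of overlapping E2F-type letters begins at -31 and -30. PLK1 has an NF-Y box at -73 and a CHR at -29. NUSAP1 has a CHR at 13, after the start, an E2F-type site at -123 and NF-Y boxes at -105 and -64. MKI67 has 2 CHR motifs, at -47 and -29, and the second shares a base with an NF-Y box that begins at -24. MKI67 also has an E2F-type site at -80. ANLN has 2 adjoining CHR motifs, at -26 on the other strand and at -20. On silk, the 17 genes with a CHR had a median co-culture difference of -1.08 with 5 called lower, the 10 with an E2F-type site and no CHR a median of -0.67 with 1 called, and the 10 with neither a median of -0.99 with 5 called. The median of genes with a CHR was thus near that of genes with neither motif, and these medians carry no test.

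**Figure D3:**
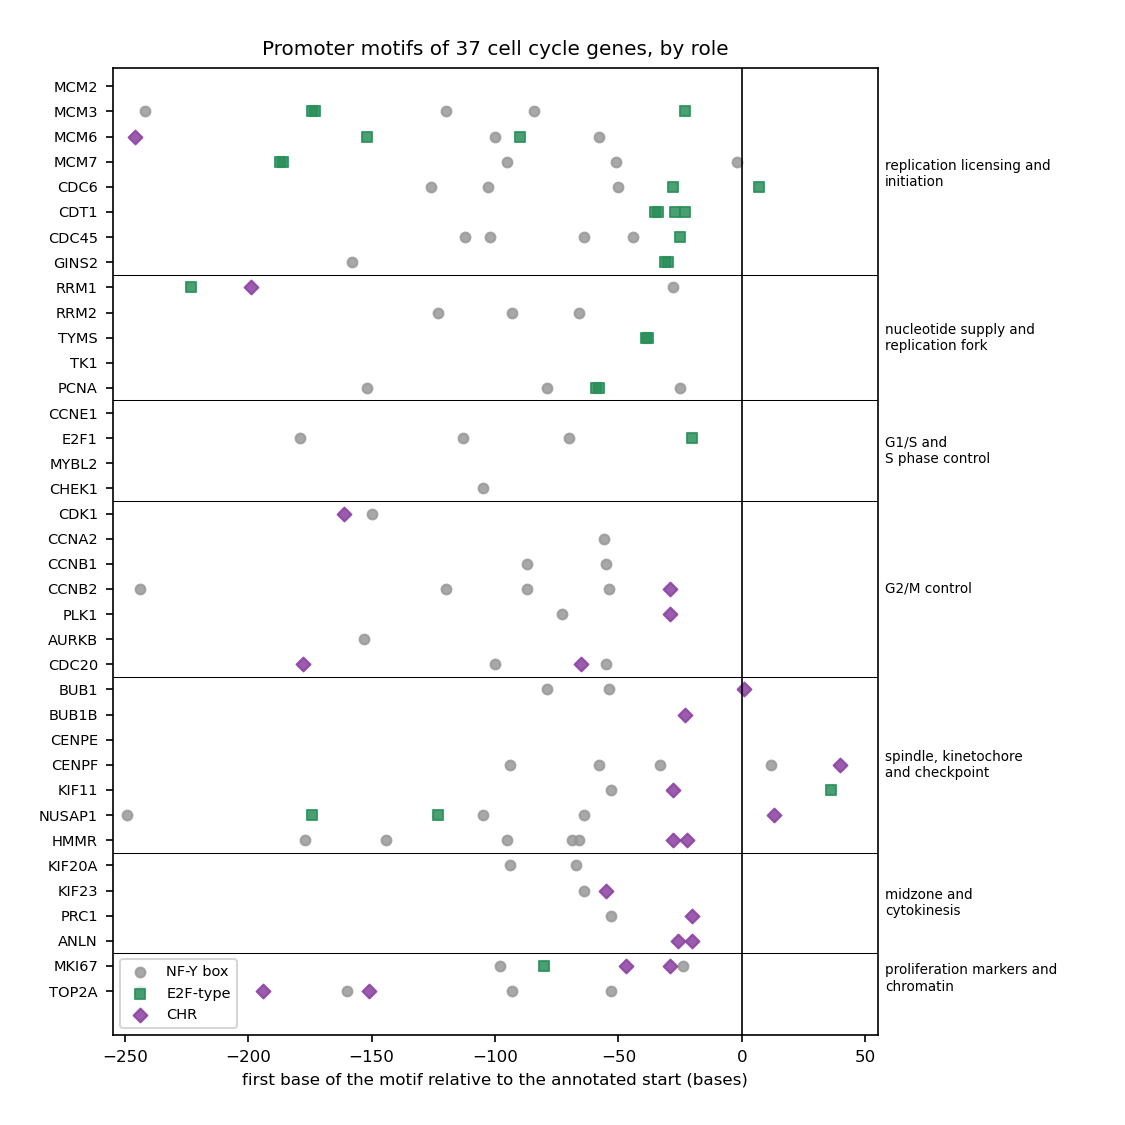
First base of each NF-Y box, E2F-type site and CHR relative to the annotated start (horizontal axis, bases) for 37 genes, 1 row a gene, grouped by role. Only the first listed window of each gene is drawn, while the counts in the text use all windows. TK1 has its NF-Y box and E2F-type site in another window only, so its row is empty. E2F-type sites (squares) lie mostly in the upper, replication rows and CHR motifs (diamonds) in the lower, mitotic rows.

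On LN/PC the same comparison gave 1 call. GINS2 was lower in LN/PC co-cultures than in LN/PC monocultures, where 4.72% of all genes were called lower, 7.8% higher and 12.5% either way, and 0 of the 47 genes were called higher. The 47 differences ran from -1.43 to 0.67 with a median of -0.13, against -0.04 over all genes, and 18 were positive. Only 2 of the 47 had an unadjusted p under 0.05, and the groups did not overlap for 3 lower genes (12.1% of all genes) and 1 higher (13.8%). GINS2 was at 52.1, 32.3 and 47.6 in LN/PC monocultures and 13.9, 13.2 and 19.7 in LN/PC co-cultures, without overlap, a difference of -1.43 ± 0.31 (limma adjusted p = 0.00524). In fibroblast monocultures GINS2 was at 21.8, 15.8 and 16.1, near the LN/PC co-culture level. With only the 6 LN/PC libraries in the fit the call on GINS2 was lost (limma adjusted p = 0.0538).

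The values of the main markers on LN/PC overlapped. CDK1 was at 165, 92.1 and 236 in LN/PC monocultures and 187, 161 and 172 in LN/PC co-cultures, a difference of 0.18 ± 0.36. CCNB1 was at 383, 253 and 356 and 246, 261 and 258, a difference of -0.35 ± 0.22. RRM2 was at 1003, 263 and 689 and 592, 485 and 357, a difference of -0.28 ± 0.39, with LN/PC monoculture 2 below every LN/PC co-culture and the other two monocultures above them. MKI67 and TOP2A had differences of -0.57 ± 0.31 and 0.19 ± 0.30, and PCNA, MCM2, E2F1 and CDC6 of 0.00, -0.07, -0.07 and -0.44. Without LN/PC monoculture 2, GINS2, MCM7 and MKI67 were called lower (3 of 47), the median was -0.32, and the TOP2A and CDK1 differences became -0.13 and -0.19. Without LN/PC monoculture 1 the median was 0.062 and 26 of the 47 differences were positive, against 18 with all libraries. The shares of all genes called without these libraries are not given here.

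The LN/PC co-cultures held fibroblast RNA, at 17.8% to 32.0% of the fibroblast level by the marker sum, and its part in these values was not tested. Of the 47 genes, 27 had an LN/PC co-culture mean between the means of LN/PC monocultures and fibroblast monocultures. For 12 it was above both and for 8 below both. These placements of means carry no test, and the share over all genes is not given here. GINS2 alone was called between the LN/PC groups. Some means lie close together: CCNA2 averaged 77.4 in LN/PC co-cultures, 82.1 in LN/PC monocultures and 82.2 in fibroblasts. The 8 below both were MCM6, CDC6, GINS2, TYMS, E2F1, CCNA2, FOXM1 and CENPE. CDC6, for example, averaged 39.8 ± 10.98 (SD, n = 3) in LN/PC co-cultures, 53.9 ± 10.6 in LN/PC monocultures and 69.4 ± 9.70 in fibroblasts. The 12 above both were CDT1, CDC45, RRM1 and TK1, which serve replication, and CDK1, AURKA, AURKB, UBE2C, TTK, KIF11, ANLN and TOP2A. UBE2C, the conjugating enzyme of the anaphase-promoting complex, averaged 86.2 ± 21.5 in LN/PC co-cultures, 61.8 ± 11.1 in LN/PC monocultures and 36.6 ± 10.1 in fibroblasts.

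**Figure D4:**
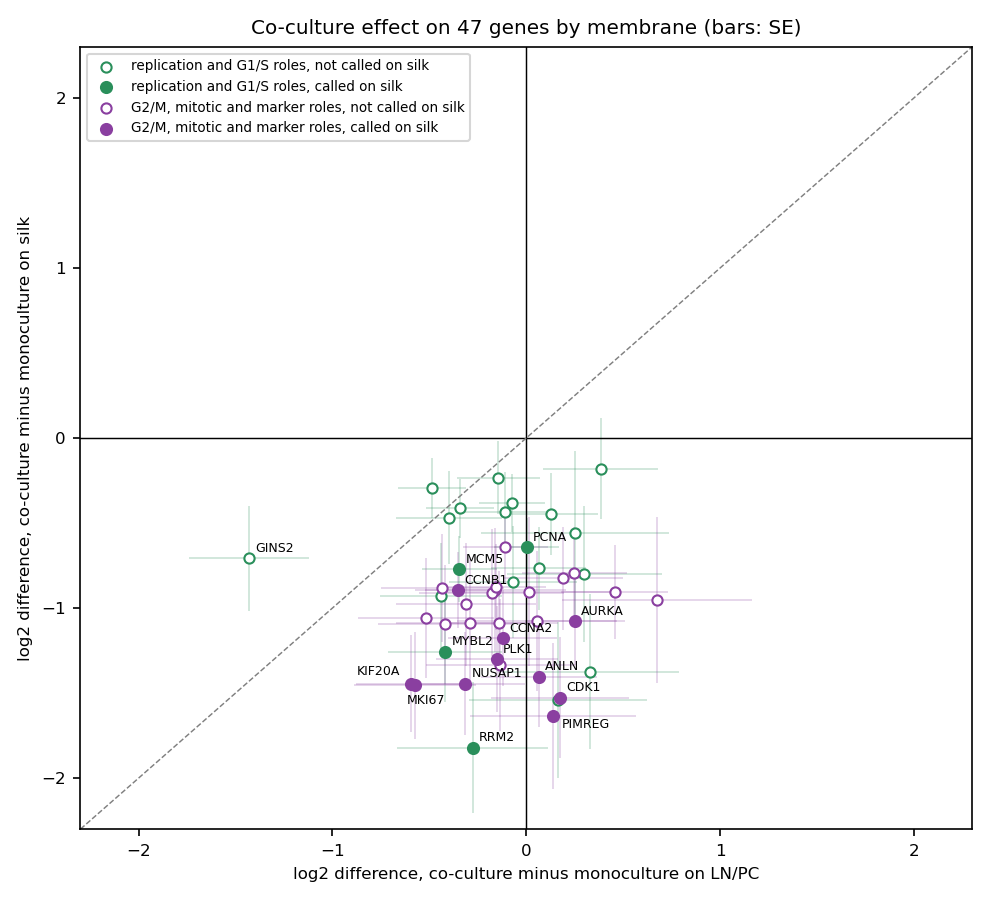
Co-culture minus monoculture difference of each of the 47 genes on the log2 scale, on LN/PC (horizontal axis) and on silk (vertical axis), with bars for the SE, colour for the role and filled points for genes called on silk. All 47 points lie below 0 on the silk axis while they spread to both sides of 0 on the LN/PC axis, and GINS2 stands apart to the left.

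The difference between the 2 co-culture effects was tested as an interaction, the effect on silk minus the effect on LN/PC. It was negative for 45 of the 47 genes, with a median of -0.81 against 0.03 over all genes, and 19 of 47 had an unadjusted p under 0.05. 4 passed the adjusted test, all lower, where 4.59% of all genes were called lower, 3.15% higher and 7.73% either way. They were CDK1 (-1.70 ± 0.50, limma adjusted p = 0.0488), ANLN (-1.47 ± 0.42, limma adjusted p = 0.0423), UBE2C (-1.36 ± 0.39, limma adjusted p = 0.0425) and AURKA (-1.33 ± 0.37, limma adjusted p = 0.0357), all genes of mitosis. Fibroblast marker RNA, at 17.8% to 32.0% of the fibroblast level in LN/PC and 0.252% to 0.312% in silk co-cultures by the marker sum, moves with this difference, and its part was not tested.

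AURKA was at 159, 323 and 298 in silk monocultures and 148, 97.3 and 112 in silk co-cultures. On LN/PC the monocultures were at 169, 149 and 206 and the co-cultures at 222, 221 and 178. Its silk groups did not overlap and its LN/PC groups did. UBE2C was at 105, 139 and 151 and 87.6, 60.7 and 61.6 on silk, and at 63.6, 49.96 and 71.99 and 62.5, 104 and 91.9 on LN/PC. UBE2C thus had a negative co-culture difference on silk and a positive one on LN/PC (0.46 ± 0.28, limma adjusted p = 0.313). Neither of these 2 differences passed the test by itself. ANLN was at 566, 305 and 459 in LN/PC monocultures and 497, 417 and 439.7 in LN/PC co-cultures, with overlap. The 4 calls rested on few libraries: the number was 0 without silk monoculture 2, silk monoculture 3, silk co-culture 2, silk co-culture 3 or LN/PC monoculture 2, 1 without any single LN/PC co-culture, 2 without LN/PC monoculture 1 and 13 without silk monoculture 1. It was 4 without silk co-culture 1, 5 without LN/PC monoculture 3 and 1 with limma without its trend. For these recomputed fits the shares of all genes called are not given here.

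Between the monocultures, the question was how the membrane alone relates to these genes. Of the 47 genes, 8 were called higher on silk and 0 lower, and the other 39 did not pass the test, where 5.88% of all genes were called higher, 5.79% lower and 11.7% either way. Of the differences, 43 were positive and 4 negative, with a median of 0.47 against 0.03 over all genes. The groups did not overlap for 10 genes, all higher on silk (14.2% of all genes), and 0 lower (12.3%). This comparison and the co-culture comparison on silk share the 3 silk monoculture libraries, so a high silk monoculture moves both. Harvest differed with the membrane, as given above.

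The calls fell on replication and G1/S genes as well as on mitotic ones. E2F1 was at 23.9, 23.9 and 29.8 in LN/PC monocultures, below all 3 silk monocultures, a difference of 1.20 ± 0.33 (limma adjusted p = 0.0288). CDC6 was at 55.6, 63.6 and 42.6 in LN/PC monocultures against the silk values given above, without overlap, a difference of 1.13 ± 0.31 (limma adjusted p = 0.0298). MCM2 was at 223, 193 and 191 and PCNA at 349, 358 and 316 in LN/PC monocultures, both below every silk monoculture, with differences of 0.74 ± 0.17 (limma adjusted p = 0.0126) and 0.70 ± 0.17 (limma adjusted p = 0.0153). These 4 genes act at origins, at the fork or in driving S phase.

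CCNA2 was at 149.7, 196 and 203 in silk and 105, 72.2 and 69.6 in LN/PC monocultures, without overlap, a difference of 1.16 ± 0.28 (limma adjusted p = 0.0158). In silk co-cultures CCNA2 was at 84.7, 75.7 and 79.1, within the range of the LN/PC monocultures. UBE2C, with the values given above, did not overlap between the monocultures either, a difference of 1.08 ± 0.28 (limma adjusted p = 0.0213). MYBL2 was at 169.7, 88.3 and 131 in LN/PC monocultures, below all silk monocultures, a difference of 1.05 ± 0.30 (limma adjusted p = 0.0308). TPX2 was at 331, 547 and 516 in silk and 368, 223 and 261 in LN/PC monocultures, with overlap, a difference of 0.71 ± 0.22 (limma adjusted p = 0.0474).

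The markers of dividing cells were less clear between the monocultures. MKI67, TOP2A, CDK1 and CCNB1 had differences of 0.71 ± 0.31, 0.70 ± 0.30, 0.79 ± 0.36 and 0.32 ± 0.22 and none passed the test. Of the helicase subunits other than MCM2, MCM5 had a difference of 0.02 and MCM6 of 0.37, MCM4 (-0.31) and MCM7 (-0.11) were among the 4 negative values, and none passed the test. The number of calls was 15 without silk monoculture 1, 1 without silk monoculture 2 and 2 without silk monoculture 3, all higher on silk. It was 2 without LN/PC monoculture 3 and 4 with only the 6 monoculture libraries in the fit, again all higher on silk. Leaving out LN/PC monoculture 1 gave 9 calls and leaving out LN/PC monoculture 2 gave 6. The shares of all genes called in these recomputed fits are not given here.

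Between the co-cultures, 6 of the 47 genes were called, 1 higher and 5 lower on silk, in a comparison where 18.5% of all genes were called higher, 17.6% lower and 36.1% either way. The share of the 47 genes called was thus below that of all genes. The median difference was -0.32 against 0.03 over all genes, 14 were positive, and the groups did not overlap for 13 lower genes (26.2% of all genes) and 2 higher (27.5%). GINS2 was the gene higher on silk, at 41.2, 36.8 and 32.01 in silk co-cultures against the LN/PC co-culture values given above, a difference of 1.19 ± 0.31 (limma adjusted p = 0.00765). RRM2, PIMREG and NUSAP1, at the levels given for silk co-cultures above, were the largest of the 5 lower genes. In LN/PC co-cultures PIMREG was at 81.7, 85.8 and 70.9 and NUSAP1 at 251, 283 and 218, and neither they nor RRM2 overlapped with silk. Their differences were -1.34 ± 0.39 for RRM2 (limma adjusted p = 0.0136), -1.38 ± 0.43 for PIMREG (limma adjusted p = 0.0203) and -0.94 ± 0.31 for NUSAP1 (limma adjusted p = 0.0253).

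AURKA and KIF11 were the other two lower genes, with differences of -0.81 ± 0.26 (limma adjusted p = 0.024) and -0.74 ± 0.27 (limma adjusted p = 0.0444). KIF11 was at 184, 201 and 161 in silk and 286, 341 and 282 in LN/PC co-cultures, without overlap. MKI67, TOP2A, CCNB1 and CDK1 had differences of -0.17, -0.32, -0.23 and -0.91 and did not pass the test (limma adjusted p = 0.0551 for CDK1). All 15 fibroblast markers were called lower in silk than in LN/PC co-cultures, and the part of fibroblast RNA in this comparison was not tested. The number called was 3 without silk co-culture 2, 1 without silk co-culture 3, 1 without LN/PC co-culture 1, 2 without LN/PC co-culture 2 and 11 with only the 6 co-culture libraries in the fit. Leaving out silk co-culture 1 gave 7 calls, and leaving out LN/PC co-culture 3 also gave 7. With libraries scaled to the same total, 2 were called higher and 4 lower. In these recomputed fits the shares of all genes called are not given here.

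The fibroblast monocultures gave a reference for the cell cycle genes of the partner cells. Against the mean of the epithelial monocultures, 27 of the 47 genes were lower in fibroblasts and 1 was higher, in a comparison of 2 cell types where 30.3% of 14502 genes were called lower, 28% higher and 58.3% either way. The median difference was -0.91 against -0.02 over all genes, and the groups did not overlap for 17 genes, all lower in fibroblasts, where 25.4% of all genes did so. By role, 7 of 10 licensing genes, 8 of 10 G2/M control genes and 6 of 10 spindle genes were called lower. MYBL2 had the largest difference, with 35.2, 52.7 and 45.95 in fibroblasts, below every epithelial monoculture, -2.01 ± 0.26 on the log2 scale (limma adjusted p = 4.52e-05). CDC20 was at 127, 287 and 249 in monocultures on silk, 178, 121 and 149 in those on LN/PC and 56.1, 65.4 and 38.6 in fibroblasts, a difference of -1.73 ± 0.28 (limma adjusted p = 0.000287).

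The checkpoint and kinetochore genes followed. BUB1 was at 104, 299 and 275 in monocultures on silk, 234, 90.8 and 193 in those on LN/PC and 68.5, 43.4 and 62.1 in fibroblasts, a difference of -1.65 ± 0.38 (limma adjusted p = 0.00311). CENPF was at 765, 1288 and 1669, 1217, 626 and 944 and 299.9, 375 and 333 in the same groups, a difference of -1.62 ± 0.25 (limma adjusted p = 0.00018). AURKB, the Aurora kinase of the passenger complex, was at 38.97, 95.8 and 96.7, 71.3, 34.2 and 69.1 and 14.2, 30.7 and 14.9, a difference of -1.69 ± 0.39 (limma adjusted p = 0.00322). For each of these 3 genes every fibroblast library was below every epithelial monoculture. BUB1B, PLK1 and NUSAP1 had differences of -1.60 ± 0.41, -1.61 ± 0.31 and -1.59 ± 0.31, all called.

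The E cyclins and PCNA had positive differences. CCNE2 was the 1 gene called higher, at 67.2, 53.03 and 38.6 in fibroblasts against 36.5, 28.6 and 53.6 in silk and 18.5, 15.2 and 18.7 in LN/PC monocultures, a difference of 0.97 ± 0.28 (limma adjusted p = 0.0121). The fibroblasts overlapped with the silk monocultures for CCNE2. CCNE1 had a difference of 0.73 ± 0.30 and PCNA of 0.30 ± 0.14, and neither passed the test. With libraries scaled to the same total, 37 of the 47 were called lower and 0 higher, and CCNE2 was no longer called. The PCNA difference was then -0.07, since that scaling moved the median of all genes by -0.37. The share of all genes called with that scaling is not given here.

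Of the wider lists, the silk co-culture comparison called 4 of 48 other S phase genes and 3 of 68 other mitotic genes lower. It called 0 of either higher, where 0.866% of all genes were called lower and 2.91% higher. The medians of the 2 lists were -0.48 and -0.91. The S phase genes included CLSPN (-1.38, limma adjusted p = 0.0158), EXO1 (-1.37) and ASF1B (-1.28), which act in checkpoint signalling, DNA resection and histone deposition. The mitotic genes were KIF18B (-1.65, limma adjusted p = 0.00927), ZWINT (-1.33) and CENPI (-1.52), a kinesin and 2 kinetochore proteins. The other mitotic genes thus had the same median as the 47 genes with fewer calls. Of 13 genes of the DREAM and MuvB complexes and the RB family 0 were called on silk by limma and 1 had an unadjusted p under 0.05. Of 6 replication-dependent histone genes tested 0 were called by limma and 3 had an unadjusted p under 0.05, with a median of 0.75, and poly-A selection captures this RNA poorly.

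Among 13 CDK inhibitors, D cyclins and their kinases, 1 was called higher and 1 lower in silk co-cultures. Of all genes, 2.91% were called higher and 0.866% lower in that comparison. CDKN1A, the p21 inhibitor that is also a p53 target, averaged 776.8 normalized counts in silk monocultures and 1558 in silk co-cultures, a difference of 1.01 ± 0.18 (limma adjusted p = 0.00411). CDKN1C, the p57 inhibitor, averaged 291 and 138, a difference of -1.07 ± 0.22 (limma adjusted p = 0.00877). So these 2 inhibitors moved in opposite directions on silk. On LN/PC, CDKN1A averaged 705 in monocultures and 910.4 in co-cultures and did not pass the test (0.38 ± 0.18, limma adjusted p = 0.195), and the CDKN1A interaction did not either (0.63 ± 0.26, limma adjusted p = 0.165). GADD45A, a stress gene and p53 target, averaged 358 and 586 on silk and 287 and 512 on LN/PC, differences of 0.72 ± 0.15 (limma adjusted p = 0.0116) and 0.83 ± 0.15 (limma adjusted p = 0.00126). In fibroblasts CDKN1A averaged 3499, higher than in the epithelial monocultures by 2.26 ± 0.15 on the log2 scale (limma adjusted p = 1.03e-07). CDKN1A and GADD45A were the 2 of 14 p53 targets called on silk, both higher.

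The wider lists were read on the other comparisons against the shares of all genes given above. Between the monocultures, where 5.88% of all genes were called higher and 5.79% lower, 2 of 48 other S phase genes (EXO1, 1.77, and TIMELESS, 0.61) were called higher on silk, and of 68 other mitotic genes 6 were higher and 1 lower, with CKS2 (1.01), SGO2 (1.21), KIF18B (1.22) and KIF14 (1.00) the 4 with the smallest p. Between monoculture and co-culture on LN/PC, where 7.8% of all genes were called higher and 4.72% lower, 1 of 48 S phase genes (PRIM2, 1.07) was higher and 1 of 68 mitotic genes (NCAPD2, -0.84) lower. The interaction called EXO1 (-2.39) and CLSPN (-1.46) of the S phase list and KIF18B (-1.97), H2AZ1 (-1.08), SGO2 (-1.48) and CENPK (-1.83) of the mitotic list, all lower, where 4.59% of all genes were called lower. Between the co-cultures, 1 of 48 S phase genes was higher and 5 lower on silk, and 1 of 68 mitotic genes was higher and 7 lower, fewer in share than the 18.5% and 17.6% of all genes called higher and lower. In fibroblasts, where 30.3% of all genes were called lower and 28% higher, 18 of 48 S phase genes and 35 of 68 mitotic genes were lower than in the epithelial monocultures and 2 of each were higher.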

How the data were processed

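RNA of 15 samples was sequenced, 3 libraries in each of 5 groups taken from the sample titles. RNA was selected by its poly-A tail and the kit kept the strand, per the labels' protocols. The submitters' processing notes name Salmon 1.10.3 and DESeq2; their genome build, annotation and settings were not given in the sources used here. Values deposited by the authors as normalized counts are log2 values that do not go below 5.53664461 in any library, as a variance-stabilizing transformation leaves them. Inverting it, with this lowest value as the constant, gave normalized counts on a linear scale, with 0 for the lowest value. Whole reads could not be recovered: a read was worth about 0.755 to 1.31 normalized counts, and between 29.3% and 49.1% of the low values came within 0.1 of a whole number of reads.

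Values of log2(normalized count + 1) were compared by limma 3.58.1 in R 4.3.3, with its mean-variance trend, over genes that reached 10 in 3 or more libraries of a fit, with Benjamini-Hochberg adjustment over all of them, and a gene was called where its adjusted p was under 0.05. This scale understates the change of low genes. The 12 epithelial libraries entered 1 fit of 14433 genes without a replicate block, and fibroblasts were compared in a fit of the 9 monocultures (14502 genes). The procedure was tested on simulated data. Depth was about 8.71 to 14.3 in units of 1e6 reads, and without molecular identifiers it limits counting error only. The genes and lists were chosen with earlier results of these data known. Every one of the 47 genes may be named; values per library are given for up to 8 called genes with the largest change in a comparison (with 20 or more on average in one of the groups) and for MKI67, TOP2A, CDK1, CCNB1, PCNA, MCM2, E2F1 and CDC6, and of each wider list up to 4 called genes with the smallest p are named, except 1 gene that is not reported here. Alternatives were another pseudocount, other filters, the deposited log2 values, rescaling, only the compared groups (or all 15 libraries), no trend, a replicate block and leaving out libraries. Promoter sequences are from RefSeq on GRCh38.p14.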

Additional observations from a re-analysis of the deposited data

Results flagged for a closer look

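In 4 of the 47 genes the co-culture effect differed between the membranes by the interaction test (limma, adjusted over 14433 genes). Of all genes, 4.59% were called lower and 7.73% either way. The 4 calls rested on few libraries. None was left without silk monoculture 2, silk monoculture 3, silk co-culture 2, silk co-culture 3 or LN/PC monoculture 2. The effect on silk minus that on LN/PC was -1.70 for CDK1, -1.47 for ANLN, -1.36 for UBE2C and -1.33 for AURKA on the log2 scale, with adjusted p of 0.0488, 0.0423, 0.0425 and 0.0357. In each of them the 3 silk co-culture libraries lay below the 3 silk monoculture libraries, and the LN/PC groups overlapped. Relative to fibroblast monocultures, the summed fibroblast markers stood at 17.8% to 32.0% on LN/PC and 0.252% to 0.312% on silk in the co-cultures. In silk monocultures, without fibroblasts, the sum stood at 0.25% to 0.310%, so it does not measure fibroblast RNA on silk. The part of fibroblast RNA in these 4 values was not tested.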

How the results depend on the processing

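Groups of 3 libraries that spread widely limit the calls on these genes. Of 102 recomputed counts of genes called, 64 stayed within 1.5 times the count reported. These counts are of the 47 genes and stand without the share of all genes called in the same fit. With only the compared groups in the fit the counts were 4 (silk against LN/PC monocultures), 11 (co-cultures), 26 (co-culture on silk) and 0 (co-culture on LN/PC). Without the trend they were 2 for co-culture on silk and 1 for the interaction, and with libraries scaled to the same total 2 for co-culture on LN/PC. Leaving out 1 library gave 1 to 15 for the monocultures, 1 to 7 for the co-cultures, 1 to 24 for co-culture on silk, 1 to 3 for co-culture on LN/PC, 0 to 13 for the interaction and 23 to 35 for fibroblasts; a group left with 2 libraries keeps the spread of the pooled fit. Leaving out silk monoculture 1 and LN/PC monoculture 2 together, chosen after seeing the data and on the levels of these same genes, gave 13, 35, 9 and 12 calls for the monocultures, co-culture on silk, co-culture on LN/PC and the interaction, and nothing is supported with these counts.

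The replicate numbers did not pair the libraries: of 30 pairs of libraries with the same number, 3 had deviations from their group means that correlated above 0.1, the correlations ran from -0.23 to 0.18, and 10 of 30 matched their own number best. The fit with a replicate block called 9 genes for co-culture on silk and 1 for the interaction, and the other comparisons stayed within 1.5 times.

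The sign of 14 recomputed values near 0 changed, none of them called. With 1 library left out, the PCNA difference between the co-cultures ran from -0.048 (without LN/PC co-culture 2) to 0.16, and it was also below 0 without silk co-culture 1. For co-culture on LN/PC the same ranges were -0.066 to 0.11 for PCNA, -0.13 to 0.016 for MCM2, -0.19 to 0.15 for E2F1, -0.13 to 0.41 for TOP2A and -0.19 to 0.49 for CDK1. The TOP2A and CDK1 values below 0 came without LN/PC monoculture 2 and stayed at -0.13 and -0.19 when silk monoculture 1 was left out too. With libraries scaled to the same total, PCNA became -0.16 for co-culture on LN/PC and -0.072 in fibroblasts. Over all genes, scaling to the same total moved the share of calls that were higher from 50.4% to 62.9% (monocultures), 51.3% to 62.9% (co-cultures), 77.1% to 53.7% (co-culture on silk), 62.3% to 38.2% (co-culture on LN/PC) and 48.0% to 28.8% (fibroblasts), and scaling to the upper quartile to 60.5% for the monocultures and 66.1% for co-culture on silk.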
